A study of Arabidopsis thaliana with 2 samples.

Results

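Many Arabidopsis genes are known only by a locus code, in which the digit after AT is the chromosome and the last 5 digits give the place along it. The genes described here carry such a code as their only symbol and had a higher signal in stems overexpressing AtC3H14 than in wild-type stems. They were chosen by their values on these arrays: a probe set naming 1 such gene was taken where its signal was at least 104.0 on both arrays and the ratio of 35S::AtC3H14 to wild type was at least 2. Plastid genes, UGT75C1, AT1G78400 and AT1G48100 were left out beforehand. This gave 239 probe sets of 239 protein-coding genes, out of 5869 locus-code probe sets measured on both arrays and 22746 non-control probe sets in all. A further 6061 locus-code probe sets lay below 104.0 on at least 1 array and were given no ratio here. AtC3H14 (AT1G66810), the gene that was overexpressed, is itself 1 of the 239, because its symbol in the platform annotation is the locus code.

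RNA was read on the Affymetrix ATH1 array, on which each transcript is measured by a set of short oligonucleotides (a probe set). There was 1 array of wild type and 1 of 35S::AtC3H14, a line that expresses AtC3H14 from the 35S promoter, a viral promoter active in most plant tissues. The plants of both groups had the Columbia (Col-0) background and had been kept on soil for 30 days, under a cycle of 16 h light and 8 h dark at 23 °C. The tissue was stem, from its base as far as the third internode. The sources used here do not give the number of plants or transgenic lines behind a sample.

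CCCH zinc finger proteins carry a motif of cysteines and a histidine that holds zinc and can bind RNA or DNA, and several plant members act in the control of messenger RNA. The title of the series calls AtC3H14 a direct target of MYB46, a transcription factor that switches on secondary wall formation in xylem and fibre cells. It places AtC3H14 in cell elongation and wall formation. In stems, elongating cells loosen and extend a primary wall, and cells that have stopped elongating deposit cellulose, xylan and lignin in a secondary wall.

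The values are MAS5 signals on a linear scale, and their 2% trimmed mean was 500 on each array. A ratio is thus set by the mean level of its array. The median log2 ratio was 0.04 over all 12826 probe sets above the floor and 0.05 over the 5869 locus-code ones. With 1 array per group there was no replicate, no test and no SD between plants. Differences between the samples other than genotype cannot be told apart from it. Because different probe sets bind with different strength, a signal is not set against that of another gene as a transcript level. In bulk stem RNA, fewer cells of a type and less RNA per cell cannot be told apart. The 18 spiked hybridization control probe sets were higher on the 35S::AtC3H14 array, by a mean log2 shift of 0.52.

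Stem markers were present on both arrays. IRX10, of xylan synthesis in secondary walls, went from a wild-type signal of 3524 to 3481 in the overexpressor, and HCT, of lignin synthesis, from 8828 to 6388. Of 12 stem vascular markers, 8 had a probe set naming them alone, all above the floor on both arrays, and IRX1, IRX3, IRX5 and SUC2 were not analysed here. Their ratios ran from 0.08 to 1.16, and 3 of the 8 lay under 0.5. SWEET11, a sucrose exporter of the phloem, went from 5346 to 407, CLE44, a vascular signalling peptide, from 524 to 141, and PHV, a vascular patterning gene, from 923 to 459. A9, a marker of anther tapetum, lay at 9.02 and 26.6, below the floor on both arrays. PYK10, a beta-glucosidase of roots and seedlings, went from 614 to 56.4, which is below the floor. WSD1, a wax ester synthase of the stem epidermis, went from 11.3, also below the floor, to 466. The green tissue markers LHCB4.1, PRK and RCA had ratios of 0.80, 1.07 and 1.03. Whether differences in tissue had a part in these marker values or in the ratios given here was not tested.

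The signal of AtC3H14 went from 244 in wild type to 8655. The ratio was 35.5, in the direction of the genotype label, and the next ratio among the 239 genes was 15.1. The probe set does not separate the transgene from the native gene.

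The 239 genes made up 4.07% of the locus-code probe sets measured on both arrays. The rule fixed this direction, so the count is a description. Over all probe sets the share at least 2-fold higher was 4.51%, or 579 of 12826, and over genes with a symbol it was 5.35%, or 53 of 990. At least 2-fold lower were 285 locus-code probe sets, or 4.86%. Over all probe sets 720 of 12826 were at least 2-fold lower, and over genes with a symbol 58 of 990. Higher ones thus made up 45.6% of the locus-code probe sets past 2-fold. With each array centred on its median this was 32.8% (177 higher, 363 lower), and after scaling to the hybridization controls 7.32% (68 higher, 861 lower). The last scaling moved the median log2 ratio of the locus-code probe sets to -0.45. The ratios ran from 2.0004 to 35.5, with a median of 2.33. Most lay close to the threshold: 142 had ratios from 2 to 2.5, 37 from 2.5 to 3, 44 from 3 to 4, 14 from 4 to 8 and 2 above 8. At 4 or more were thus 16 genes, 0.273% of the 5869. Over all probe sets 55 of 12826 were at 4 or more, and over genes with a symbol 7 of 990. At least 4-fold lower were 27 of the 5869 locus-code probe sets. Leaving AtC3H14 out of the 239 genes gave a median ratio of 2.32.

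**Figure D1:**
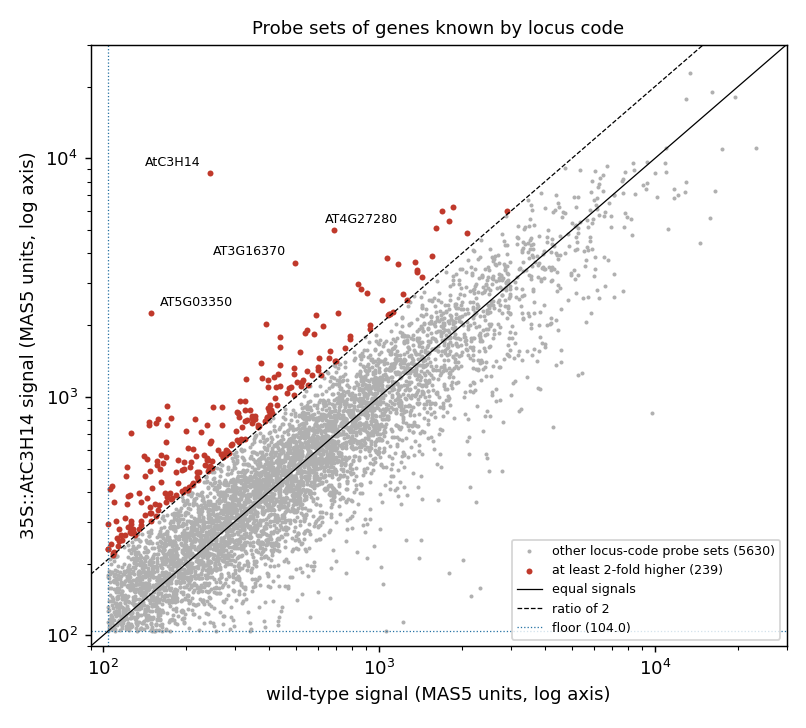
Signal in wild type (x axis) against signal in 35S::AtC3H14 (y axis) for the 5869 locus-code probe sets above the floor on both arrays, in MAS5 units on log axes, 1 array each. The 239 genes at least 2-fold higher (red) lie above the dashed line by construction, and AtC3H14, at 244 and 8655, stands apart from the others.

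The names in the gene table grouped only a few of these genes by product. It gave a name besides the locus code for 6 of the 239, or 2.51%, and for 81 of the 5869 measured, or 1.38%. The 6 were AtC3H14, a late embryogenesis abundant protein, a xylanase, a transporter and a pair of peptidyl-prolyl isomerases. The other 233 are given by locus code with no product, because no source used here names one.

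AT2G46140 (LEA27) is named as a late embryogenesis abundant protein, a class of hydrophilic proteins that gather in drying seeds and in water-stressed tissue. Its signal went from 199 to 720, a ratio of 3.62. LEA26 (AT2G44060), the other measured gene that the gene table names so, went from 4306 to 4274, a ratio of 0.99. HIRD11 (AT1G54410), named as a dehydrin, a group of the same class, went from 11766 to 6808, a ratio of 0.58. LEA27 was thus the 1 of these 3 genes past 2-fold higher.

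AT4G08160 (ATXYN3) carries the name of an endo-xylanase, an enzyme that cuts the backbone of xylan, the main hemicellulose of secondary walls. Its signal went from 270 to 905, a ratio of 3.35. It was the 1 measured gene that the gene table names as a xylanase. Of the xylan synthesis markers, IRX10 had a ratio of 0.99, IRX10-L of 1.16, IRX15 of 0.73 and IRX15-L of 0.95.

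AT2G26690 (NPF6.2) belongs to the NRT1/PTR family, plasma membrane proteins that move nitrate, peptides, hormones or glucosinolates together with protons. Its signal went from 1374 to 3345, a ratio of 2.44. Of 7 measured family members, NPF6.2 alone was higher by 2-fold or more and NPF6.4 (AT3G21670) alone lower. NPF6.4, of the same subfamily, had signals of 2752 and 971, a ratio of 0.35.

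The other 5 family members lay within 2-fold. NPF3.1 (AT1G68570) had a ratio of 1.43, GTR2, a glucosinolate transporter, 1.29 and NPF4.4 (AT1G33440) 1.10. NPF4.3 (AT1G59740) had a ratio of 0.73, and GTR1, the other glucosinolate transporter, 0.70. The median log2 ratio of the 7 was 0.14. NPF6.2 therefore stood at one end of these 7 and NPF6.4 at the other. The 7 are only the family members that the gene table names so and that lay above the floor on both arrays. NPF6.2 was described because it passed the rule.

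AT4G33060 (CYP57, cyclophilin 57) and AT5G48570 (FKBP65, also ROF2) belong to the immunophilins, which turn the bond before proline in folding proteins. The FKBP class also includes proteins that act with heat-shock chaperones. CYP57 went from 268 to 578, a ratio of 2.16. FKBP65 went from 203 to 409, a ratio of 2.02. CYP71 (AT3G44600), the other measured gene named as a cyclophilin, went from 403 to 462, a ratio of 1.15.

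FKBP65 lay so close to the threshold that its log2 ratio of 1.01 fell under 1 in each of 6 other ways of scaling the arrays or treating low signals, the lowest being 0.41. That of CYP57, 1.11, fell under 1 in 3 of them, the lowest being 0.59. LEA27 and ATXYN3 kept ratios of at least 2 in all 6.

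The 5 highest ratios after AtC3H14 belonged to genes without a named product. AT5G03350 went from 149 to 2251, a ratio of 15.1. AT3G16370 went from 494 to 3655, a ratio of 7.39. AT4G27280 went from 685 to 5002, a ratio of 7.30. In wild type AT5G03350 lay near the floor, while AT3G16370 and AT4G27280 were well above it. AT4G23870 went from 126 to 703, a ratio of 5.56, and AT4G29020 from 170 to 912, a ratio of 5.37.

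The next 6 lay between ratios of 5.35 and 4.64. AT2G19460 went from 147 to 785 and AT4G16980 from 389 to 2026. AT1G09750 went from 147 to 759 and AT1G47400 from 157 to 808. AT3G02480 went from 156 to 777 and AT4G22490 from 176 to 816. Except for AT4G16980, these 6 had wild-type signals under 208, which is 2 times the floor. Each of the 12 highest ratios, AtC3H14 included, stayed at 2 or more in all 6 other ways of processing the signals.

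The remaining 4 genes with ratios of at least 4 were AT2G35820, from 170 to 759, AT5G55450, from 122 to 507, AT1G62290, from 438 to 1775, and AT5G52760, from 141 to 567. AT1G62290 was the 1 of these that started well above the floor. Below them, 44 genes had ratios from 3 to 4. Examples with wild-type signals over 500 were AT5G59305, from 592 to 2202 with a ratio of 3.72, and AT3G19550, from 547 to 1913 with a ratio of 3.50. AT3G27200 went from 538 to 1861, a ratio of 3.46, and AT1G56190 from 860 to 2823, a ratio of 3.28. Examples near the floor were AT3G18050, from 107 to 422, and AT5G48900, from 106 to 412, with ratios of 3.93 and 3.90. These 10 genes were picked after their values were seen. Of them, AT5G55450, AT5G52760, AT3G18050 and AT5G48900 did not keep a ratio of at least 2 in all 6 other ways of processing. The others did.

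AT4G16980 had a second probe set, with signals of 45.0 and 96.9, both below the floor, so no ratio is read from it. AT3G60420, with a ratio of 2.57, had one at 4.97 and 6.35, also below the floor on both arrays. AT4G20760, with a ratio of 2.40, had one above it on both, at 134 and 184, a ratio of 1.37. These were the 3 other probe sets that name one of the 239 genes. The 1 of them that could be read thus had the same direction as the probe set that chose the gene, but lay under 2-fold. Over all 58 genes with several measured probe sets, the pooled SD of the log2 ratio between probe sets of a gene was 0.35.

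Other genes had high signals on both arrays. Of the 239 genes, 20 had a wild-type signal of at least 1000, with ratios between 2.02 and 3.57. AT3G28500 went from 1847 to 6231, a ratio of 3.37. AT1G04680 went from 1685 to 5989, a ratio of 3.56. AT3G22240, which had the highest wild-type signal of the 239, went from 2912 to 6036, a ratio of 2.07. Their wild-type signals lay far above the floor, while 8 of the 12 highest ratios started from wild-type signals under 208.

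The other genes among the 12 highest overexpressor signals were much alike in ratio. AT1G49750 went from 1787 to 5466, a ratio of 3.06, and AT4G24780 from 1602 to 5112, a ratio of 3.19. AT2G23120 went from 2083 to 4849, a ratio of 2.33, and AT4G34950 from 1557 to 3907, a ratio of 2.51. AT3G49220 went from 1066 to 3811, a ratio of 3.57, and AT3G52960 from 1345 to 3673, a ratio of 2.73. AtC3H14, AT4G27280 and AT3G16370 were the 3 genes on both the list of highest ratios and the list of highest overexpressor signals.

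**Figure D2:**
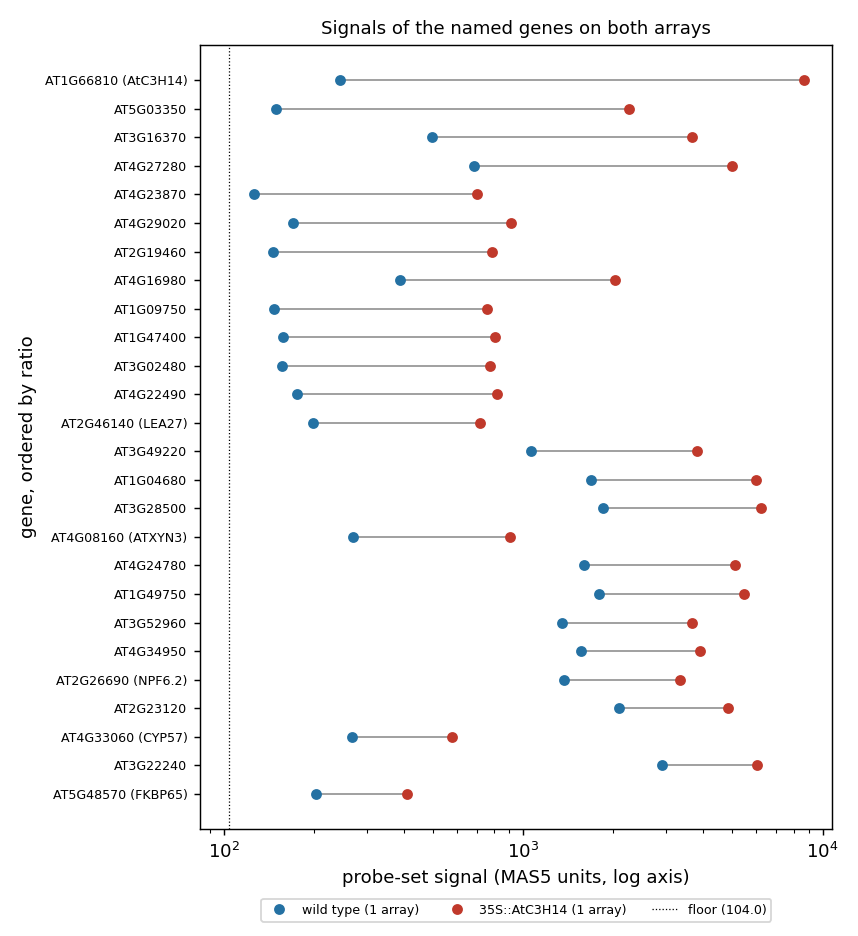
Signals of the 12 genes with the highest ratio, the 12 with the highest 35S::AtC3H14 signal and the 6 with a name, ordered by ratio, in MAS5 units on a log axis, with 1 array per point. Blue points are wild type and red points 35S::AtC3H14; the bar of AtC3H14 spans 244 to 8655 and that of FKBP65 203 to 409.

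At the edges of the rule the genes were hardly told apart. Just inside it were AT3G46600, from 616 to 1232 with a ratio of 2.0004, AT1G32190, from 108 to 216, and AT1G69680, from 150 to 300.5. Just outside it were AT3G47180, from 133 to 267 with a ratio of 1.999, AT5G56240, from 891 to 1778, and AT4G29520, from 250.5 to 499. At the floor, AT2G25270 was kept with a wild-type signal of 104.3 and an overexpressor signal of 292. AT3G52480 was not, with 101.8 and 389. Of the 239, 93 genes had a wild-type signal under 208.

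The share of higher genes varied with the brightness of the probe sets. The 5869 probe sets were cut into quartiles of mean signal over both arrays, which also enters the rule, so these shares are a description. At least 2-fold higher were 47 of 1468 in the dimmest quartile (3.20%), 81 of 1467 in the second (5.52%), 63 of 1467 in the third (4.29%) and 48 of 1467 in the brightest (3.27%). At least 2-fold lower were 3.00%, 4.98%, 4.77% and 6.68%. In the brightest quartile the lower probe sets, 98, outnumbered the higher, 48. Of the 16 genes with ratios of at least 4, 10 lay in the second quartile, with mean signals from 246 to 448. Because both signals had to reach the floor, a probe set with a mean signal near it could not be past 2-fold in either direction. The low shares in the dimmest quartile, and the place of these 16 genes, are thus partly set by the rule.

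**Figure D3:**
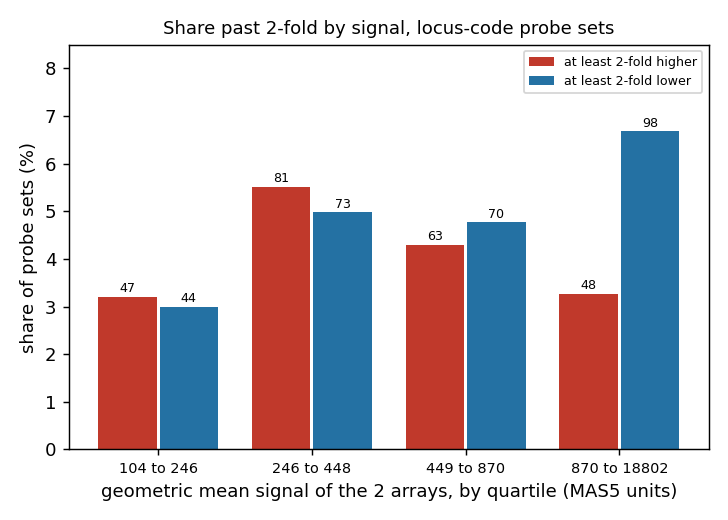
Share of locus-code probe sets past 2-fold upward (red) and downward (blue) in 35S::AtC3H14, in percent, by quartile of the geometric mean signal of both arrays in MAS5 units; the number of probe sets stands above each bar. The share of higher probe sets is greatest in the second quartile (5.52%) and that of lower ones in the brightest (6.68%). The floor limits the shares in the dimmest quartile.

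Position and gene structure were not used by the rule. The 239 genes lay on all 5 nuclear chromosomes. Their share of the measured locus-code probe sets was 3.87% on chromosome 1 (60 genes), 3.72% on chromosome 2 (33), 4.66% on chromosome 3 (55), 4.02% on chromosome 4 (33) and 4.06% on chromosome 5 (58). These shares all lay near the 4.07% of the whole.

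The median length of the gene models was 2345 bases for the 239 genes and 2361 bases for the other 5630 measured probe sets. Genes under 1000 bases made up 9.62% of the 239 and 5.08% of the others. They made up 15.1% of the probe sets at least 2-fold lower, so short genes were more frequent on both sides. The gene table gave a single transcript for 62.8% of the 239 genes, against 49.7% of the others and 57.5% of the lower ones. Lengths and transcripts come from the TAIR10.1 gene table, and no test was made of these differences.

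Genes next to each other on a chromosome were compared in the order of protein-coding genes. Of the 239 genes, 114 had a measured neighbour. They gave 124 neighbour entries, of which 8 were higher by 2-fold or more (6.45%) and 5 lower (4.03%). A gene lying between genes of the 239 was entered from each side. Neighbours of the other measured locus-code genes were higher in 3.64% and lower in 5.10%. The median log2 ratio of the neighbours was 0.08 beside the 239 genes and 0.05 beside the others. Of the 8 higher neighbours, 6 were the members of 3 adjacent pairs within the 239 genes, each counted once from either side.

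Of 1425 adjacent pairs of measured locus-code genes, 3 (0.211%) were both higher by 2-fold or more and 5 (0.351%) both lower. Among pairs 2 to 5 genes apart, 12 of 5174 (0.232%) were both higher, and among pairs 6 to 10 genes apart, 12 of 6443 (0.186%). The share did not fall steadily with distance. Adjacent genes of like sequence can share probe signal, and the sequence likeness of these pairs was not tested.

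Pairs separated by a single gene were AT4G39840 and AT4G39860, with ratios of 2.83 and 3.54, AT3G60420 and AT3G60450, with 2.57 and 2.14, AT5G19730 and AT5G19750, with 2.18 and 2.07, and AT2G45710 and AT2G45730, with 2.04 and 2.12. Of these 8 genes, AT4G39860 alone had a ratio above 3. The genes in between that had a ratio were not higher by 2-fold: AT3G60440 had 1.23 and AT2G45720 had 0.62. FKBP65 stood 5 places from AT5G48540, which went from 137 to 362, a ratio of 2.64.

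The pair on chromosome 1 was AT1G29660, from 378 to 1195 with a ratio of 3.17, and AT1G29670, from 842 to 2969 with a ratio of 3.53. The ratios of both genes were thus close. Within 5 genes on either side AT1G29700 was the 1 other gene with a ratio, 0.57.

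Both other pairs lay on chromosome 4, and each had a further higher gene close by. AT4G27270 went from 151 to 417, a ratio of 2.76, beside AT4G27280 at 7.30. The log2 ratio of AT4G27270, 1.47, fell under 1 in 2 of the 6 other ways of processing, to 0.94 with the control scaling and 0.43 with the 60th percentile floor. With that floor, lower signals were raised to it before the ratio. The gene on the other side of AT4G27270 was WES1 (AT4G27260), also called GH3.5, which conjugates auxin to amino acids and so lowers the free hormone. WES1 went from 251 to 1260, a ratio of 5.01. So 3 genes in a row were at least 2-fold higher, of which only AT4G27270 and AT4G27280 are known by locus code alone. AT4G27240 and AT4G27300, the nearest measured genes beyond them, had ratios of 0.82 and 0.86.

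AT4G23870, with a ratio of 5.56, stood next to AT4G23880, which went from 219 to 460, a ratio of 2.10. The log2 ratio of AT4G23880, 1.07, fell under 1 in 4 of the 6 other ways of processing: 0.97 with median centring, 0.81 with the pseudocount, 0.58 with the 60th percentile floor and 0.55 with the control scaling. In those 4 the pair was not past 2-fold in both genes. At 4 places before AT4G23870 came AT4G23820, from 222 to 482 with a ratio of 2.17. Next to that stood WRKY53 (AT4G23810), a transcription factor of leaf senescence and defence, which went from 236 to 638, a ratio of 2.71. Between them AT4G23840 had a ratio of 1.03, and beyond the pair AT4G23885 had one of 1.13. The higher genes were thus not an unbroken run here.

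**Figure D4:**
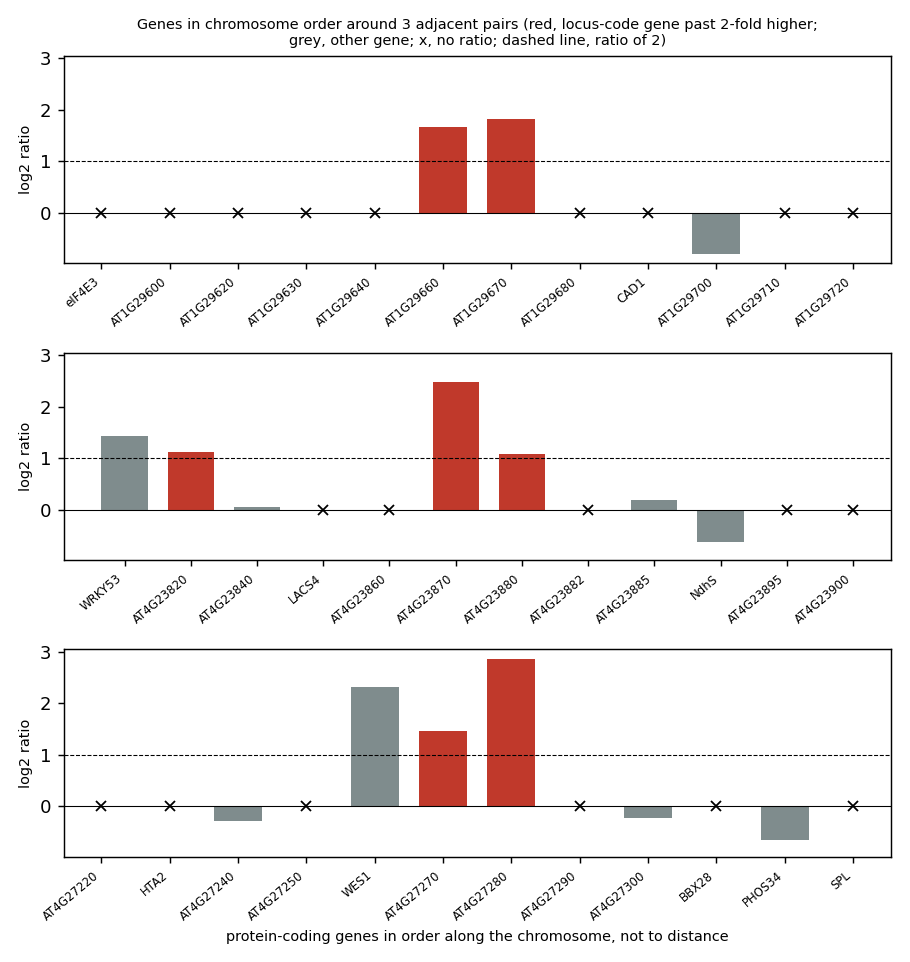
Log2 ratio of 35S::AtC3H14 to wild type for genes in chromosome order around the 3 adjacent pairs, on 1 array per group; red bars are locus-code genes at least 2-fold higher, grey bars other genes, and crosses genes with no ratio. In the lowest panel WES1, AT4G27270 and AT4G27280 stand side by side with log2 ratios of 2.33, 1.47 and 2.87.

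The number of genes past 2-fold rested on how the arrays were scaled. When each array was centred on its median signal, 173 of the 239 kept a ratio of at least 2, and after scaling to the hybridization controls 68 did. The median log2 ratio of the 239 was 1.22 as deposited and 0.70 with the control scaling. In all 6 alternatives together, 47 genes kept a ratio of at least 2, and these had deposited ratios from 2.91 to 35.5.

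**Figure D5:**
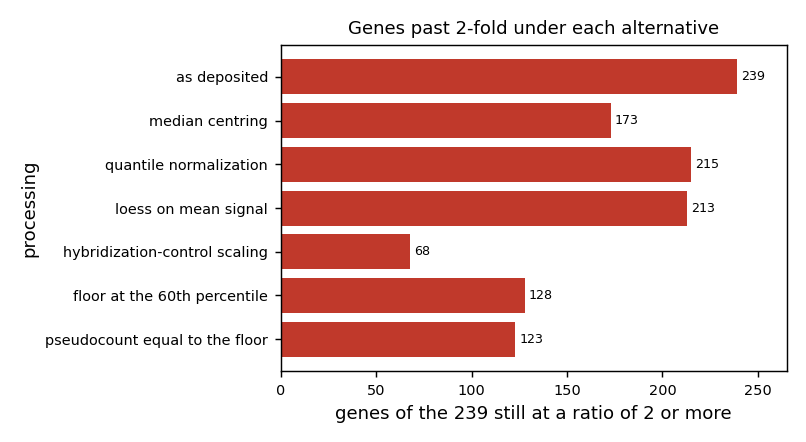
Number of the 239 genes that have a ratio of at least 2 as deposited and under each of 6 other ways of processing the signals. The bar is shortest for scaling to the hybridization controls (68 genes).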

How the data were processed

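The authors deposited 1 intensity per probe set and array, not log-transformed, computed by MAS5 according to the submitters' processing notes. The sources used here give neither its version nor its scaling settings. There were 22810 probe sets, of which 64 controls were set apart. The floor of 104.0 is the 40th percentile of the signals, controls aside, of both arrays; the 27 bacterial control probe sets outside the hybridization controls reached at most 62.4. Genes were taken from the platform annotation, in which 13513 probe sets named 1 gene, 503 several and 8730 are unnamed here. Names came from the TAIR10.1 gene table, whose coordinates are not printed because no source used here gives the build behind the array. Ratios, counts and medians were computed with Python 3.11.15, pandas 2.3.3 and numpy 2.4.6. The ratio rule was also run on simulated signals with little noise, where changed genes were placed only well above the floor. That run does not check calls near the floor or the threshold. No test was possible with 1 array per group.

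Genes are named where they are among the 12 highest ratios or the 12 highest overexpressor signals, at the threshold, neighbours of each other, or read by another probe set. Those named in the gene table, their families and the genes beside the pairs were added after values were seen. The members and lists were chosen with earlier results of these data known. Planned product classes had words to match for few genes, and protein and promoter features were not analysed here. The alternatives of scaling were median centring, quantile normalization, loess with a span of 0.4 (statsmodels 0.14.6) and hybridization-control scaling. For low signals, those below the 60th percentile were raised to it before the ratio, or a pseudocount equal to the floor was added. Other probe-set choices and other sizes were also used.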

Additional observations from a re-analysis of the deposited data

How the results depend on the processing

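Centring each array on its median gave 177 locus-code genes at least 2-fold higher, quantile normalization 229 and loess 214, of which 173, 215 and 213 were among the 239. With the hybridization-control scaling 68 were higher and the median log2 ratio of the 239 genes was 0.70. With the floor at the 60th percentile, lower signals were raised to 308 before the ratio and no probe set was dropped. That left 128 higher, and the pseudocount left 123. At 3-fold 60 were higher and at 4-fold 16. With no floor 2010 of 11930 were higher, all of the 239 among them. Leaving out _s_at and _x_at probe sets gave 238, and 1 probe set a gene 239. The median log2 ratio was between 1.01 and 1.22 under the other alternatives. For 33 of the genes named in the text, no log2 ratio changed sign in the 6 alternatives of scaling and low signals. This says little, because the genes were chosen as at least 2-fold higher, and a raised floor or a pseudocount cannot reverse a ratio. With the 60th percentile floor the log2 ratios of AT1G69680 and AT1G32190 fell to 0. In the control scaling 12 of the 33 fell under 2-fold, among them NPF6.2 (0.76), AT4G27270 (0.94), AT4G34950 (0.80) and AT3G22240 (0.53). With the 60th percentile floor AT4G27270 had 0.43. These 33 included the 12 highest ratios and left out other genes named in the text, such as AT3G60420 and AT4G20760. The share of the 33 that fell is thus not that of all named genes or of the 239. The planned product classes could be matched only through names, which 81 of the 5869 measured probe sets had. Of these classes only oxidoreductases had 3 or more measured genes, namely 5. None of the 5 was among the 239, which made up 4.07% of the measured locus-code probe sets. So few genes cannot show whether the class differs from that share. The median log2 ratio of the 5 was -0.51, or -1.03 with the control scaling. Whether the 233 genes without a name include oxidoreductases was not tested. No paired analysis was possible because each group had 1 array. Leaving out an array would leave no comparison.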
